A study of Mus musculus with 4 samples.

Results

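Glucose and lactate transport was followed through 9 genes: the glucose transporters *Slc2a1*, *Slc2a3* and *Slc2a4*, the monocarboxylate transporters *Slc16a1*, *Slc16a3* and *Slc16a7*, the chaperone gene *Bsg*, and the lactate dehydrogenases *Ldha* and *Ldhb*. They were taken by symbol from the 19030 genes listed, and all 9 passed the filter on low values. The tissue was the inguinal white adipose tissue (ingWAT), which lies under the skin, of C57BL/6 mice aged 3 months and housed at 4°C. Ctrl mice (Oct3 fl/fl, with loxP sites around an exon of *Slc22a3*, the gene of the organic cation transporter Oct3) were compared with cKO mice (Oct3 fl/fl with Adiponectin-Cre), in which recombination is limited to cells that express adiponectin, chiefly adipocytes. Mice of both genotypes carried the floxed allele and were kept in the cold, with 2 libraries per genotype. How many mice each library holds is not stated in the sources used here, so the p-values measure only the spread between libraries.

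Glucose enters cells down its gradient through transporters of the SLC2 (GLUT) family. GLUT1, the product of *Slc2a1*, serves basal uptake, and GLUT4, the product of *Slc2a4*, is brought to the surface of adipocytes and muscle fibers by insulin. Lactate and pyruvate cross the membrane with a proton through the SLC16 (MCT) family, in which MCT1 and MCT4 need basigin, the product of *Bsg*, to reach the surface. Lactate dehydrogenase interconverts pyruvate and lactate as a tetramer of the A chain (*Ldha*), common in glycolytic tissue, and the B chain (*Ldhb*), common in oxidative tissue.

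In cKO ingWAT, *Ldhb*, *Slc16a1*, *Bsg* and *Slc2a1* rose and *Slc16a7* fell, so that 5 of the 9 genes were differentially expressed. The count was 2 without Ctrl replicate 1 and 3 without Ctrl replicate 2. Expression is given as FPKM, which divides the fragments of a gene by its transcript length and by the size of the library. Genotypes were compared on log2(FPKM + 1) with limma, and a gene was called differentially expressed at an adjusted p under 0.05 (Benjamini-Hochberg, over all 12658 genes tested). Fold changes on this scale are smaller than those of FPKM for low genes. By this rule 25.8% of all genes tested were called, with 12.0% called higher and 13.8% called lower in cKO tissue. Over the 9 genes the median log2 fold change was 0.11, and over all genes tested it was -0.006. The libraries of the genotypes did not overlap for 7 of the 9 genes, against 66.5% of all genes tested.

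*Slc22a3*, the targeted gene, was at 16.95 and 17.68 FPKM in Ctrl and at 9.07 and 9.50 in cKO, a log2 fold change of -0.83 ± 0.066 (SE, limma adjusted p = 0.000439). The values count all exons in whole tissue, which includes cells without Cre. The median absolute log2 difference between libraries was 0.076 for the Ctrl pair and 0.090 for the cKO pair, against 0.150 to 0.168 across genotypes. Depth was not given, and was estimated from short RNA genes as 17600000 to 18675000 reads per library.

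**Figure D1:**
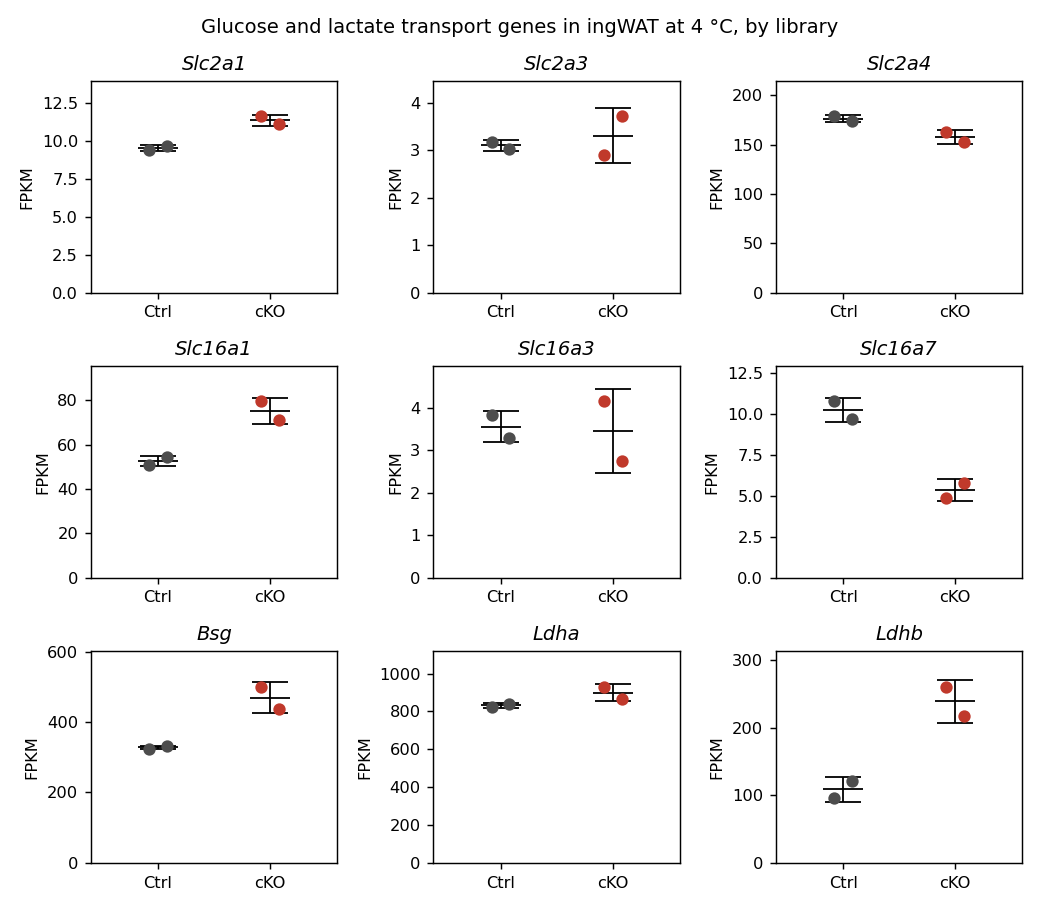
FPKM (y axis, linear from 0, with its own range in each panel) of the 9 genes in the 2 Ctrl (gray) and 2 cKO (red) libraries; points are libraries, and bars are the mean ± SD (n = 2). The genotypes overlap in *Slc2a3* and *Slc16a3* and in no other panel.

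The promoters of the genes that rose, where a sequence was at hand, and of *Ldha*, the partner of *Ldhb*, are shown to set the genes beside the letters that hypoxia-inducible and cAMP-responsive factors are known to read. RefSeq promoter windows (GRCm38.p6) were matched for 5 of the 9 genes, and none was at hand for *Slc2a3*, *Slc2a4*, *Slc16a7* and *Bsg*. Each line is the 250 bases before an annotated start, 5′ to 3′ on the strand of the gene. The *Ldha* start used lies inside the gene, whose span begins at chr7:46842274. The windows are chr6:142507958-142508207 (minus strand) for *Ldhb*, chr7:46845554-46845803 (plus strand) for *Ldha*, chr3:104638414-104638663 (plus strand) for *Slc16a1* and chr4:119108495-119108744 (plus strand) for *Slc2a1*. Capitals mark ACGTG and GCGTG, the cores of the hypoxia response element, and TGACGTCA, the cAMP response element, on either strand.
Ldhb: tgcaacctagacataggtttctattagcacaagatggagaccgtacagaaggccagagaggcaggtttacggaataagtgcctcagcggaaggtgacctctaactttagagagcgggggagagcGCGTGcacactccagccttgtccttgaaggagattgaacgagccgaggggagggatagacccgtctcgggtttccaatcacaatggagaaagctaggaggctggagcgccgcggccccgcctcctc
Ldha: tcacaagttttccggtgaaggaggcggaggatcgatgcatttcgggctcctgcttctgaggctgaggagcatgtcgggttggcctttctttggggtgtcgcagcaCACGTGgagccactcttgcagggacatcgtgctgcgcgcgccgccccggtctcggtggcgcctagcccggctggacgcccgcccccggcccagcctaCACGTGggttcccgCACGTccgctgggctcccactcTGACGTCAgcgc
Slc16a1: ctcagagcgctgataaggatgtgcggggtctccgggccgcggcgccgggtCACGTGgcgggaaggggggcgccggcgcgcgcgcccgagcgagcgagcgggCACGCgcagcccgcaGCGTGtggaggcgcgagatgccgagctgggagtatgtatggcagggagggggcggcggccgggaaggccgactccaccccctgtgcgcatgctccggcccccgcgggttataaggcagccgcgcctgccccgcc
Slc2a1: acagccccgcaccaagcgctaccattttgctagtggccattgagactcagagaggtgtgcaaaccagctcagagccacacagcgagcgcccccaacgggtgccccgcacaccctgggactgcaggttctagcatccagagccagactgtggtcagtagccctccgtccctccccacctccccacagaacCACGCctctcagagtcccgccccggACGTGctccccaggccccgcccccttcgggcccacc

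ACGTG stood in 16.6% of the 32851 promoter windows of this length, GCGTG in 28.2% and TGACGTCA in 1.55%. At least one of ACGTG and GCGTG stood in 38.6%. ACGTG reads as CACGT on the other strand, so that CACGTG, which is also an E-box, holds it on both strands and counts once here. In *Ldha* the capitals begin 145, 48 and 34 bases before the start for ACGTG and 12 bases before it for TGACGTCA. In *Slc16a1* they begin 200 bases before the start for ACGTG and 149 and 134 bases before it for GCGTG. *Slc2a1* has GCGTG at 61 and ACGTG at 36 bases before the start, and *Ldhb* a single GCGTG at 126 bases. AAGGTCA, the half-site of estrogen-related receptors, was in 4.08% of all windows and in none of the windows of these genes. A second annotated start of *Ldha* had a single GCGTG, 59 bases before it. The window of *Slc16a3*, not printed, had ACGTG at 27 and 14 bases before a start that also lies inside its gene. The matches were thus found in genes that rose and in genes that were not called, and a match is a description of the letters, not a bound site.

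Of the glucose transporters, *Slc2a4* made up most of the transcript and was not differentially expressed, and the minor *Slc2a1* rose slightly. *Slc2a4* (gene ID 20528, chr11:69942286-69948216 in GRCm38.p6) was at 178.59 and 173.81 FPKM in Ctrl and at 162.81 and 152.81 in cKO. Both cKO libraries were below both Ctrl libraries. The log2 fold change was -0.16 ± 0.060 (SE, 95% confidence interval -0.30 to -0.02), and the limma adjusted p of 0.0982 missed the threshold. *Slc2a1* (gene ID 20525, chr4:119108745-119137330) was at 9.41 and 9.69 FPKM in Ctrl and at 11.65 and 11.14 in cKO. The groups did not overlap, and the rise was 1.19-fold in mean FPKM with a log2 fold change of 0.23 ± 0.067 (SE, limma adjusted p = 0.0432). This call was lost when any of the 4 libraries was left out, with adjusted p from 0.0748 (without cKO replicate 2) to 0.226 (without Ctrl replicate 1) and log2 fold changes from 0.20 to 0.26, and it was also lost without a filter on low values (0.0779) and when the variance was not allowed to follow expression (0.0587).

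*Slc2a3* (gene ID 20527, chr6:122727809-122802363), the high-affinity transporter GLUT3 of neurons and blood cells, was low in every library. It was at 3.18 and 3.03 FPKM in Ctrl and at 2.90 and 3.72 in cKO, and the groups overlapped. The log2 fold change was 0.06 ± 0.115 (SE, 95% confidence interval -0.21 to 0.34, limma adjusted p = 0.721). At an estimated 200 to 260 reads per library, counting error alone was 6.2% to 7.1% of a value.

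*Slc2a4* held 93.4% and 93.2% of the FPKM summed over the 3 glucose transporters in Ctrl and 91.8% and 91.1% in cKO, and *Slc2a1* held 4.92% and 5.19% against 6.57% and 6.64%. The share of *Slc2a4* differed by -1.83 points (cKO minus Ctrl), with no overlap between the groups. In a two-sided exact permutation test over libraries p was 0.333, the smallest value that 2 against 2 libraries can give. The summed FPKM of the 3 genes was 188.9 ± 3.29 in Ctrl and 172.5 ± 6.85 in cKO (SD, n = 2).

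Of the monocarboxylate transporters, *Slc16a1* rose, *Slc16a7* fell and *Slc16a3* was not differentially expressed. *Slc16a1* (gene ID 20501, chr3:104638664-104658462), which encodes MCT1, was at 50.96 and 54.33 FPKM in Ctrl and at 79.48 and 70.95 in cKO. Both cKO libraries were above both Ctrl libraries, and the mean was 1.43-fold higher, with a log2 fold change of 0.51 ± 0.072 (SE, limma adjusted p = 0.00311). Without Ctrl replicate 1 the log2 fold change was 0.46 and the adjusted p 0.0533.

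*Slc16a7* (gene ID 20503, chr10:125219270-125389586) encodes MCT2, which has a higher affinity for lactate and pyruvate than MCT1. It was at 10.76 and 9.71 FPKM in Ctrl and at 4.88 and 5.81 in cKO. Mean FPKM in cKO was 0.52 of that in Ctrl, with no overlap, and the log2 fold change was -0.83 ± 0.097 (SE, limma adjusted p = 0.00153). This was the 261st lowest log2 fold change of the 12658 genes tested, and the call was kept when each library was left out. *Slc16a3* (gene ID 80879, chr11:120948484-120959000) encodes MCT4, which exports lactate from glycolytic cells such as fast muscle fibers. It was at 3.82 and 3.30 FPKM in Ctrl and at 4.15 and 2.75 in cKO, so that the cKO libraries lay on either side of the Ctrl libraries. The log2 fold change was -0.05 ± 0.155 (SE, 95% confidence interval -0.42 to 0.32, limma adjusted p = 0.839) and turned positive with quantile normalization or without Ctrl replicate 1 or cKO replicate 2.

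*Bsg* (gene ID 12215, chr10:79704358-79711979) was at 323.95 and 331.77 FPKM in Ctrl and at 500.80 and 437.91 in cKO. The groups did not overlap, the mean was 1.43-fold higher in cKO, and the log2 fold change was 0.51 ± 0.079 (SE, limma adjusted p = 0.00428). The adjusted p was 0.0738 without Ctrl replicate 1 and 0.0511 without Ctrl replicate 2. With quantile normalization the log2 fold change was 0.34, against 0.53 for *Slc16a1*. As deposited, *Bsg* was at 6.36 and 6.11 times the FPKM of *Slc16a1* in Ctrl and at 6.30 and 6.17 times in cKO, and the cKO ratios lay inside the range of the Ctrl ratios. The difference between the changes of the 2 genes was not tested.

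Within the 3 transporters, *Slc16a1* held 77.8% and 80.7% of the summed FPKM in Ctrl and 89.8% and 89.2% in cKO, while *Slc16a7* held 16.4% and 14.4% against 5.51% and 7.31%. The share of *Slc16a1* differed by 10.3 points (cKO minus Ctrl), with no overlap (two-sided exact permutation p = 0.333, the smallest possible here). The ratio of *Slc16a1* to *Slc16a7* was 4.74 and 5.60 in Ctrl and 16.3 and 12.2 in cKO. The summed FPKM of the 3 genes was 66.4 ± 1.27 in Ctrl and 84.0 ± 6.36 in cKO (SD, n = 2).

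**Figure D2:**
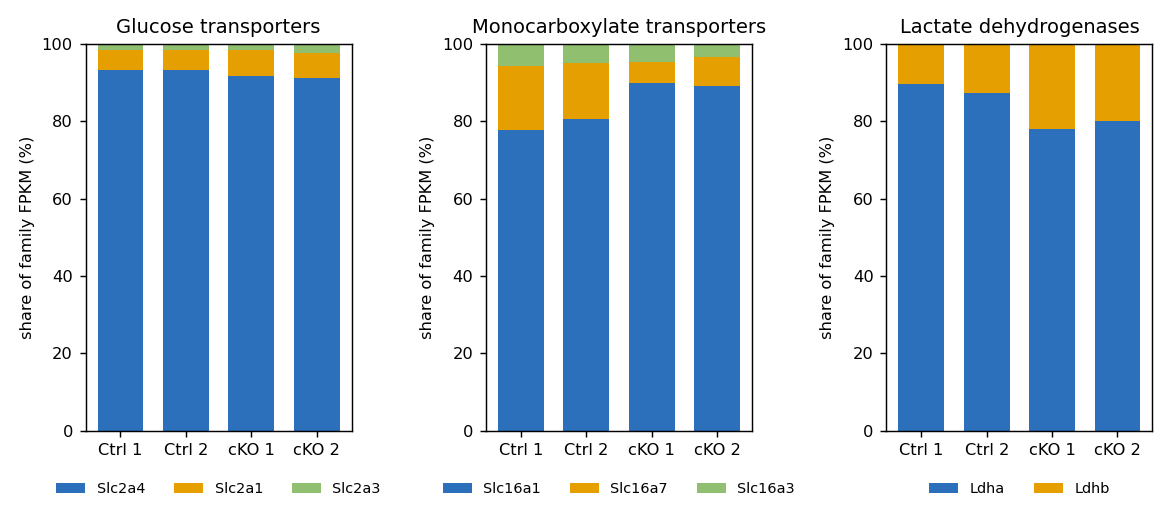
Share of the summed FPKM (y axis, percent) held by each gene of a family in each library (x axis). *Slc2a4* stays above 91% of the glucose transporters, *Slc16a1* gains on *Slc16a7* in cKO, and *Ldhb* goes from 10.4% and 12.7% to 21.9% and 20.0% of the lactate dehydrogenases.

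*Ldhb* had the largest change of the 9 genes. *Ldhb* (gene ID 16832, chr6:142490249-142507957) was at 95.64 and 121.80 FPKM in Ctrl and at 260.64 and 216.54 in cKO. Every cKO library was above every Ctrl library, although the ratio between the Ctrl libraries was larger than for any other of the 9 genes. The mean was 2.19-fold higher and the log2 fold change 1.13 ± 0.128 (SE, 95% confidence interval 0.83 to 1.43, limma adjusted p = 0.00139), the 70th highest of the 12658 genes tested. The call was kept when each library was left out.

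*Ldha* (gene ID 16828, chr7:46842274-46855627) was the most abundant of the 9 transcripts, at 822.72 and 840.86 FPKM in Ctrl and at 931.63 and 866.94 in cKO. The groups did not overlap, but the difference was small against its error, with a log2 fold change of 0.11 ± 0.074 (SE, 95% confidence interval -0.06 to 0.29, limma adjusted p = 0.312), and its sign turned with quantile normalization. The mouse genome holds processed pseudogenes of *Ldha*, and how reads shared with them were counted was not examined.

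*Ldha* held 89.6% and 87.3% of lactate dehydrogenase FPKM in Ctrl and 78.1% and 80.0% in cKO. The share differed by -9.39 points (cKO minus Ctrl), with no overlap (two-sided exact permutation p = 0.333, the smallest possible here). There were 8.60 and 6.90 *Ldha* transcripts per *Ldhb* transcript by FPKM in Ctrl and 3.57 and 4.0 in cKO. Summed FPKM was 940.5 ± 31.3 in Ctrl and 1137.9 ± 76.9 in cKO (SD, n = 2), and *Ldhb* accounted for 129.9 of the difference in FPKM and *Ldha* for 67.5.

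**Figure D3:**
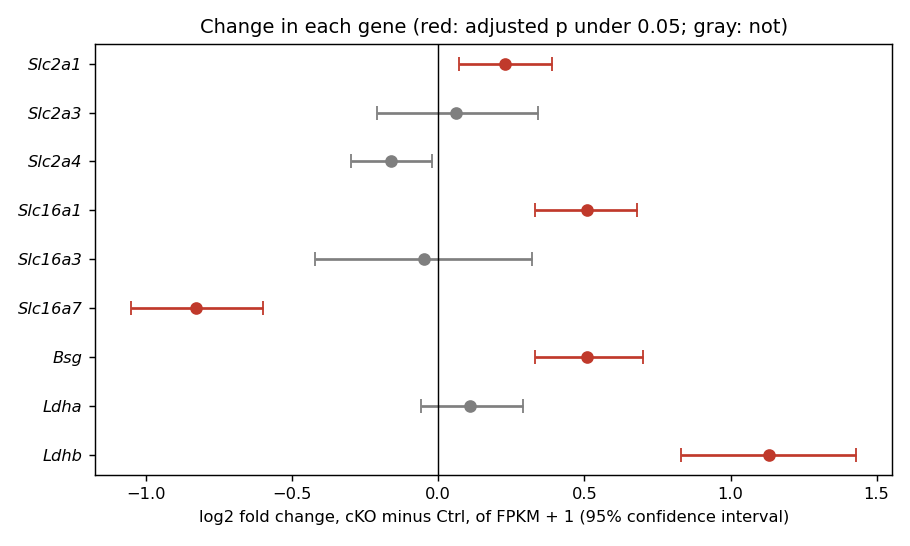
Log2 fold change of FPKM + 1, cKO minus Ctrl (x axis), for each gene (y axis), with the 95% confidence interval from limma; red marks an adjusted p under 0.05. *Ldhb* lies highest at 1.13 and *Slc16a7* lowest at -0.83, and the intervals of *Slc2a3*, *Slc16a3* and *Ldha* cross 0.

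By mean FPKM the order in Ctrl was *Ldha* (831.8), *Bsg* (327.9), *Slc2a4* (176.2), *Ldhb* (108.7), *Slc16a1* (52.6), *Slc16a7* (10.2), *Slc2a1* (9.55), *Slc16a3* (3.56) and *Slc2a3* (3.10). In cKO, *Ldhb* (238.6) stood above *Slc2a4* (157.8), and *Slc2a1* (11.4) above *Slc16a7* (5.34). Neighbors in this order had libraries that did not overlap, except for *Slc16a3* and *Slc2a3* in cKO. In Ctrl, *Slc16a7* and *Slc2a1* were close, with the lower *Slc16a7* library at 9.71 and the higher *Slc2a1* library at 9.69.

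Related genes were counted in 5 lists, of which 61 of 79 genes passed the filter, with 8 higher and 11 lower in cKO. Of all genes tested, 12.0% were called higher and 13.8% lower, the shares to set beside the counts of each list. Of the other hexose transporters, 7 of 15 were tested, 1 rose and 1 fell, and the median log2 fold change was 0.01. *Slc2a6*, a lysosomal transporter, went from 1.53 and 1.42 to 2.32 and 2.27 FPKM (log2 fold change 0.41 ± 0.104, limma adjusted p = 0.0264). *Slc2a13*, a proton-coupled transporter of myo-inositol rather than of glucose, went from 3.80 and 3.48 to 1.75 and 1.82 FPKM (log2 fold change -0.74 ± 0.098, limma adjusted p = 0.00237). *Slc5a4a* was listed at 0.00 and 0.03 FPKM in Ctrl and at 0 in both cKO libraries. Leaving out any 1 of the 4 libraries left 1 call in this list, that of *Slc2a13*.

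Of the genes for GLUT4 trafficking, 23 of 24 were tested, none rose, 3 fell, and the median log2 fold change was -0.09. Over all genes tested, 13.8% were called lower and 25.8% in either direction. *Sort1*, which encodes sortilin of the GLUT4 storage vesicle, was at 61.19 and 60.81 FPKM in Ctrl and at 47.12 and 47.85 in cKO (log2 fold change -0.35 ± 0.053, limma adjusted p = 0.00381). *Trarg1*, listed under its older symbol *Tusc5* and named for its role in GLUT4 trafficking, was at 91.29 and 90.96 against 75.00 and 72.47 (log2 fold change -0.30 ± 0.054, limma adjusted p = 0.0076). *Snap23*, a SNARE protein of vesicle fusion, was at 24.98 and 24.22 against 19.66 and 21.61 (log2 fold change -0.24 ± 0.067, limma adjusted p = 0.0368). Without Ctrl replicate 1, 0 genes of this list were called, and without Ctrl replicate 2, 1 was.

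Of the other SLC16 members, SLC5 lactate transporters and chaperones, 8 of 15 were tested, 1 rose, 3 fell, and the median log2 fold change was -0.16. *Emb*, whose product embigin is the chaperone of MCT2, was at 8.11 and 8.02 FPKM in Ctrl and at 9.76 and 10.63 in cKO (log2 fold change 0.30 ± 0.073, limma adjusted p = 0.0228), opposite in direction to *Slc16a7*. *Nptn*, a relative of *Bsg*, was at 66.18 and 66.45 against 56.98 and 57.58 (log2 fold change -0.21 ± 0.053, limma adjusted p = 0.0274). The others that fell belong to the SLC16 family but are not known as lactate carriers. *Slc16a12*, a creatine transporter, was at 2.62 and 3.34 against 1.35 and 1.36 (log2 fold change -0.75, limma adjusted p = 0.00511), and *Slc16a9* was at 6.89 and 5.94 against 3.92 and 4.23 (log2 fold change -0.54, limma adjusted p = 0.00659). Of the 4 calls in this list, 1 was left without Ctrl replicate 1, and 2 were left without Ctrl replicate 2 or without cKO replicate 2.

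Of the other lactate enzymes and the lactate receptor, 5 of 7 were tested, 1 rose, 1 fell, and the median log2 fold change was -0.01. *Ldhd*, the mitochondrial D-lactate dehydrogenase, was at 33.44 and 35.35 FPKM in Ctrl and at 45.32 and 41.65 in cKO (log2 fold change 0.33 ± 0.066, limma adjusted p = 0.0111). *Hcar1* encodes the lactate receptor of adipocytes, which restrains lipolysis. It was at 38.63 and 38.95 against 22.11 and 29.88 (log2 fold change -0.57 ± 0.124, limma adjusted p = 0.0151). *Ldhal6b* was listed at 0.15 and 0.23 FPKM in Ctrl and at 0 in both cKO libraries. Neither *Ldhd* nor *Hcar1* was called without Ctrl replicate 1 or without Ctrl replicate 2, and without a filter on low values neither was. Without cKO replicate 1, *Hcar1* was called and *Ldhd* was not.

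Of a list of regulators of transcription and of enzymes that act on such factors, all 18 were tested. Of these, 5 rose and 3 fell, and the median log2 fold change was -0.02. *Ppargc1a*, a coactivator of mitochondrial genes, was at 1.97 and 2.16 FPKM in Ctrl and at 4.56 and 4.35 in cKO (log2 fold change 0.83 ± 0.093, limma adjusted p = 0.00133). *Egln3* (3.62 and 3.84 against 8.40 and 6.52, log2 fold change 0.83, limma adjusted p = 0.00289) and *Egln1* (47.97 and 52.03 against 77.53 and 70.31, log2 fold change 0.55, limma adjusted p = 0.00213) encode the prolyl hydroxylases that mark hypoxia-inducible factors for breakdown. *Mef2d*, of a family known to act on the *Slc2a4* promoter, was at 22.99 and 22.65 against 29.03 and 29.11 (log2 fold change 0.34, limma adjusted p = 0.00571). *Klf15*, also linked to *Slc2a4*, was at 24.07 and 22.37 against 15.96 and 16.44 (log2 fold change -0.49, limma adjusted p = 0.00232). The adipocyte factors *Cebpa* (382.84 and 347.16 against 301.73 and 298.36, log2 fold change -0.28, limma adjusted p = 0.0251) and *Pparg* (140.65 and 143.44 against 116.28 and 122.57, log2 fold change -0.25, limma adjusted p = 0.0196) fell. *Hif1a* itself was at 17.98 and 19.45 against 18.52 and 18.56 FPKM (log2 fold change -0.01, 95% confidence interval -0.17 to 0.14). *Epas1*, of the same list, was at 99.61 and 99.30 against 94.70 and 94.32 (log2 fold change -0.07, 95% confidence interval -0.20 to 0.05). *Arnt* was at 14.89 and 15.01 against 13.56 and 14.45 (log2 fold change -0.09, 95% confidence interval -0.24 to 0.06). *Hif1a*, *Epas1* and *Arnt* were not called and were named after their values were seen. RNA values do not give the protein or activity of these factors. Of the 8 calls in this list, 3 were left without Ctrl replicate 1, 4 without Ctrl replicate 2 and 5 without cKO replicate 1.

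**Figure D4:**
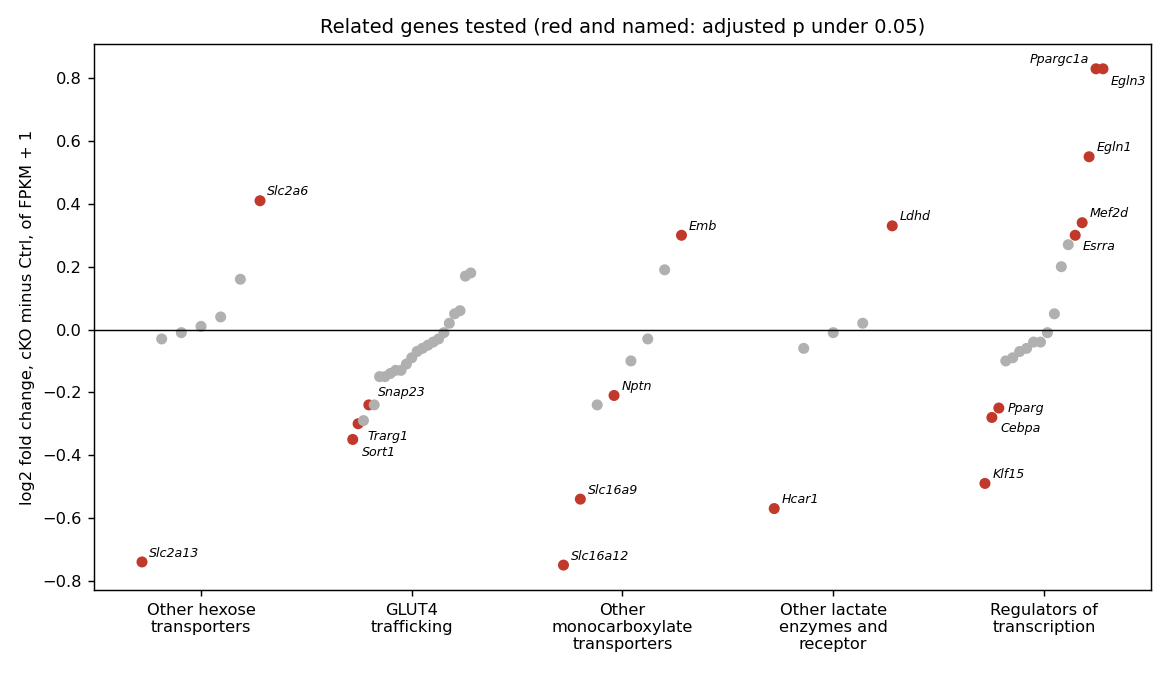
Log2 fold change of FPKM + 1, cKO minus Ctrl (y axis), of the 61 related genes tested, by list (x axis), sorted within a list; red points with a name have an adjusted p under 0.05. Of the 61 genes, 8 lie above 0 in red and 11 below, while 12.0% of all genes tested were called higher and 13.8% lower.

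Markers of other cells moved with genotype. Over all genes tested, 12.0% were called higher and 13.8% lower, the shares to set beside the counts of every marker list. Skeletal muscle genes, which fast fibers share with *Ldha*, *Slc16a3* and *Slc2a4*, summed to 2646.8 and 1790.8 FPKM in Ctrl and to 47.0 and 46.8 in cKO. Of the 14 listed, 2 were under the filter on low values, and all 12 tested fell. Most of the 12 had a cKO mean under 1 FPKM and passed the filter through Ctrl alone. The direction of their change was thus set by the filter, and their count is no test of it. *Acta1* was at 493.11 and 321.28 against 2.0 and 1.31 FPKM, and *Myl1* at 319.51 and 241.22 against 37.83 and 39.45. The part of muscle RNA in the Ctrl values of *Ldha*, *Slc16a3* and *Slc2a4* was not tested. Markers of brown fat, which has high lactate dehydrogenase B and MCT1, summed to 1547.6 and 1831.3 against 4854.5 and 4104.4. Of the 10 listed, 9 were tested and 8 rose. *Zic1* was under the filter on low values, at 0.10 and 0.11 FPKM in Ctrl and 0.09 and 0.03 in cKO. *Prdm16* was not called (log2 fold change 0.09, limma adjusted p = 0.568). Both were named after their values were seen. *Ucp1*, the uncoupling protein, was at 334.80 and 446.36 against 1657.92 and 1420.20. The part of a change in cell makeup in the rise of *Ldhb* and *Slc16a1* was not tested either.

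White adipocyte markers summed to 33275.2 and 31754.1 FPKM in Ctrl and to 25473.8 and 25580.4 in cKO, with 5 of 10 tested lower and *Fabp4*, the most abundant, at 15874.02 and 16397.84 against 13456.13 and 13615.93 (limma adjusted p = 0.225). The B cell sums were 240.5 and 273.3 against 372.8 and 422.6, with 7 of 8 tested higher, and the T cell sums 98.2 and 103.6 against 136.9 and 179.7, with 6 of 7 higher. Neutrophil sums were 14.8 and 15.6 against 32.5 and 31.9, with 5 of 5 tested higher. The other 6 of the 11 neutrophil genes listed were under the filter on low values and were not tested. *Retnlg*, named after its values were seen, had a mean of 0.9 FPKM in Ctrl and 1.99 in cKO. It passed the filter through cKO alone. Fibroblast progenitor sums were 1625.4 and 1398.1 against 956.8 and 962.5, with 6 of 8 lower, and Schwann cell and nerve sums 294.2 and 267.1 against 130.7 and 143.6, with 5 of 6 lower and 1 higher. Macrophage, endothelial and erythroid sums moved by less, with 2 higher and 5 lower of 10, 3 lower of 8 and 2 lower of 5 tested. Epithelial sums were at most 2.09, with *Krt8* at 0 in both cKO and *Krt5* in both Ctrl libraries. In whole tissue, fewer cells of a type and less RNA per cell cannot be told apart.

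**Figure D5:**
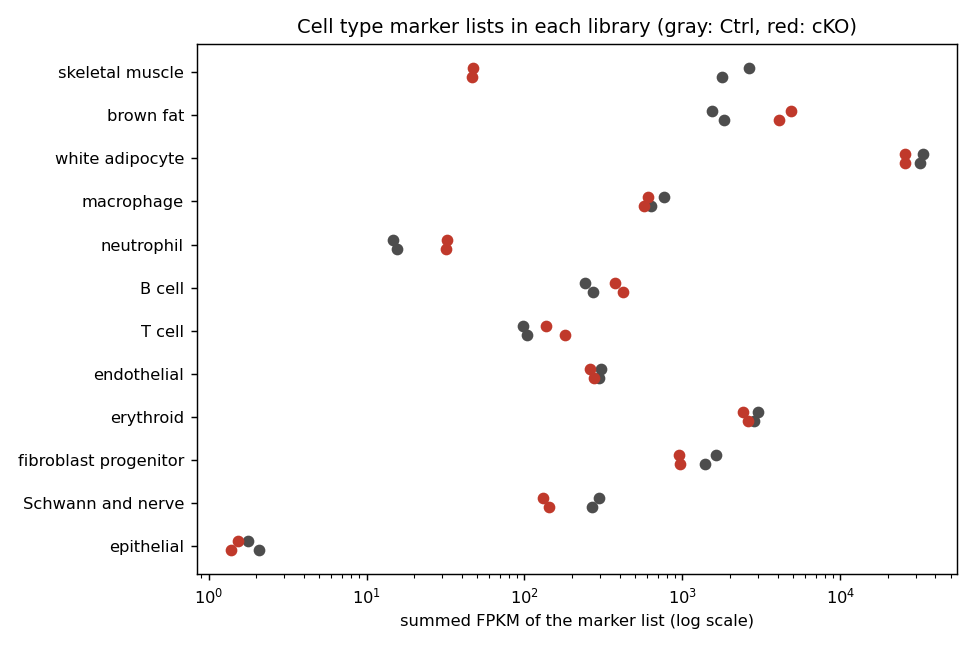
Summed FPKM of each list of cell type markers (x axis, log scale) in each library, gray for Ctrl and red for cKO. The skeletal muscle sum is 1790.8 or more in Ctrl and 47.0 or less in cKO, and the brown fat sum is at least 4104.4 in cKO and at most 1831.3 in Ctrl.

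*Slc2a1*, *Slc16a1*, *Bsg*, *Ldha* and *Ldhb* had the same order of libraries, lowest in Ctrl replicate 1, then Ctrl replicate 2, then cKO replicate 2, and highest in cKO replicate 1. All 9 brown fat markers tested of the 10 listed, *Ucp1* among them, had this order too. It was seen after the values were examined, and held for 8.47% of all genes tested and for 38.4% of the 1519 genes called higher.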

How the data were processed

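The authors purified polyadenylated RNA, read 50-base single ends on a BGISEQ-500 and deposited FPKM for each RefSeq gene in each library. The submitters' processing notes name HISAT2 2.0.4, RSEM 1.2.12 and the mm10 build, which is GRCm38. Whether the libraries were scaled to each other is not given in the sources used here, and the deposited table holds no counts. Groups were taken from the sample titles, and 0 per-sample columns were left unused.

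The 12658 of 19030 genes whose mean FPKM was 1 or more were compared with limma 3.58.1 (R 4.3.3) on the log2 of FPKM plus a pseudocount of 1, with a variance that may follow expression and with Benjamini-Hochberg adjustment over all genes tested. On simulated data for this comparison with 12658 genes, 92 of 92 genes changed by 0.5 and 108 of 108 changed by 1 on the log2 scale were recovered, with 7 false calls. The simulated spread followed the mean level alone, and low genes were not among those changed. Recovery of low genes, of genes with a larger spread than others of their level, or of changes under 0.5 was thus not simulated. Shares of a family were compared with a two-sided exact permutation test over libraries. Depth was estimated from the FPKM steps of 314 short RNA genes, for which 82.6% to 88.8% of values came out as whole reads within 0.05; read numbers per gene derived from it cover counting error only. Coordinates and promoters came from RefSeq (GRCm38.p6), and motifs were searched on both strands with Python 3.11.15.

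The 9 genes and all lists (5 of related genes, 12 of cell type markers) were chosen with earlier results of these data known. All 9 genes are given. Of a related list the differentially expressed genes are named, at most 4 in each direction, with genes at 0 in every library of a genotype, and of a marker list at most 2 genes by mean FPKM. Others are marked where named. In the alternatives, the pseudocount was 0.1, the filter was dropped or raised to a mean FPKM of 5, libraries were scaled by medians of ratios or by quantiles, replicate numbers entered as a block, the variance trend was left out, calls also needed an absolute log2 fold change of at least 1, or each library was left out in turn.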

Additional observations from a re-analysis of the deposited data

How the results depend on the processing

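Of 97 recomputed log2 fold changes of the 9 genes, 83 kept their direction and their side of the threshold, 9 kept the direction and lost the call, and 5 changed sign. The sign changes were in genes not called: *Slc2a3* (-0.07 without cKO replicate 2, to 0.20 without cKO replicate 1), *Slc16a3* (0.01 with quantile normalization, 0.03 without Ctrl replicate 1 and 0.18 without cKO replicate 2, to -0.28 without cKO replicate 1) and *Ldha* (-0.05 with quantile normalization). *Ldhb* and *Slc16a7* were called under every alternative on the fit, and the lost calls were those of *Slc2a1*, *Slc16a1* and *Bsg*. Leaving out a library, which leaves a genotype with 1 library that is assumed to vary like the other group, gave 2 to 4 of the 9 genes and 877 to 2429 of all genes. An added absolute log2 fold change of at least 1 left 1 of the 9 genes (*Ldhb*) and 233 of all genes, and testing without a filter called 1762 of all genes. With the replicate number as a block, 5 of the 9 and 3383 of all genes were called. The labels do not say whether replicate numbers mark pairs. In the expression values, the replicate differences of Ctrl and cKO had a correlation over genes of 0.0148. The shares of *Ldha*, *Slc2a4* and *Slc16a1* kept their direction throughout. Depth limits the low genes, with an estimated 109 to 163 reads of *Slc16a3* per library if its shortest transcript is assumed, and more for a longer one.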
